A study of Mus musculus with 17 samples.

Results

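Thioglycollate elicited macrophages (TGEMs), primary macrophages recruited to the mouse peritoneum by an irritant broth, were compared after 1 h of Kdo2 lipid A (KLA) and after vehicle (Veh, PBS). KLA is the lipid core of bacterial endotoxin and a specific agonist of the receptor TLR4. The comparison used 5 of the 17 samples of the series, all of them polyA RNA-seq libraries. Of these, 3 were KLA libraries, 2 from Balb/cJ cells and 1 from C57Bl/6EiJ cells, and 2 were vehicle libraries, 1 from each strain. Strains are named as in the labels, whereas the study's methods give C57Bl/6J for the C57Bl/6EiJ cells. The labels give no transgene, edit or other agent in these groups, and the study's methods describe the donors as young adult males. Cells were kept in DMEM with FBS and penicillin and streptomycin before treatment. Another 8 libraries came from immortalised bone marrow-derived macrophage lines (iBMDMs) labelled C57Bl/6EiJ, with 2 each labelled as knockouts of Atf3, Jun and JunD and 2 as controls. The titles of the controls carry zsGreen where those of the knockouts carry Veh. These 8 libraries are described near the end and enter 1 alternative fit of the KLA comparison. The other 4, GRO-seq samples, were not analysed here. Nothing in the labels says whether libraries came from separate animals, so the spread between libraries may be technical.

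TLR4 on the macrophage surface signals through adaptor proteins to the NF-kB, MAP kinase and IRF transcription factors within minutes. The first genes to respond are usually already open and poised, and many of them encode regulators of the response itself: inhibitors that switch NF-kB off again, phosphatases that silence MAP kinases, proteins that destroy unstable mRNAs, and transcription factors that drive a later wave. Cytokines and AP-1 subunits are the familiar members of this early set. The results below concern the other classes.

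Levels are RPKM (reads scaled to exonic length and to the mapped reads of the library), a scale per length and per depth. Each gene is listed in a fixed library order, Balb/cJ then C57Bl/6EiJ for vehicle, and Balb/cJ library 1, Balb/cJ library 2 and C57Bl/6EiJ for KLA. The fold change of a gene is the treatment term of a fit to log2(RPKM + 1) with strain as covariate, given with its standard error, and it understates changes of genes with low values. P values come from limma, are two-sided, and carry a Benjamini-Hochberg adjustment for all tested gene models. A gene rose or fell here if its adjusted p was under 0.05 and its fold change was at least 2.

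Read depth differed between libraries, from 2342451 and 11404523 reads with vehicle (Balb/cJ and C57Bl/6EiJ) to 17245907, 6580035 and 3253640 reads with KLA. The Balb/cJ vehicle library was thus the shallowest, and Balb/cJ KLA library 2 carries another date in its label than the other Balb/cJ libraries. Macrophage markers summed to 8220 to 11000 RPKM with vehicle and 8740 to 9510 RPKM with KLA, with 10 of 11 markers at a mean of 1 RPKM or more. Marker lists of B cells, T and NK cells, neutrophils, eosinophils and mast cells, mesothelial cells, dendritic cells, and platelets and erythroid cells each summed to at most 94.8 RPKM in any library. Neutrophil markers (6 of 10 above 0) summed to 22.2 to 33.5 RPKM with vehicle and 5.15 to 23.9 RPKM with KLA, with S100a9, Ly6g, Camp and Retnlg at 0 in all 5, and their part in any result was not tested. The sum of platelet and erythroid markers (4 of 11 above 0) went with strain, at 38.2 and 40.9 RPKM in C57Bl/6EiJ and 1.59 to 4.34 RPKM in Balb/cJ. Nearly all of it was 1 gene, Pf4, at 36.9 and 40.3 RPKM in C57Bl/6EiJ and 1.47 to 3.91 RPKM in Balb/cJ. Ppbp, Gp9, Hba-a1 and Hbb-bs were at 0 in all 5. Xist stood at 19.2 to 28.1 RPKM in all 5 libraries, which are labelled male, and the Y-linked Ddx3y and Kdm5d were at 0. Of the other Y-linked genes looked up, Uty had 1 read in Balb/cJ KLA library 1 and Eif2s3y had 15 reads (0.749 RPKM) in the C57Bl/6EiJ vehicle library, with 0 in the other libraries. In bulk RNA, fewer cells of a type and less RNA per cell cannot be told apart.

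Of 24453 gene models, 10147 were tested, those of 200 bases or more whose 5 libraries averaged 1 RPKM or more. KLA raised 168 of them (1.66%) and lowered 75 (0.739%), so that 69.1% of the changes were rises. The median log2 fold change was 2.62 among genes that rose and -1.57 among genes that fell. Rises were also larger at the extreme, since 117 genes rose and 8 fell by 4-fold or more, and 32 rose by 16-fold or more. With libraries scaled to equal medians 171 rose and 31 fell (84.7% rises), and after quantile normalization 149 rose and 26 fell (85.1% rises). The excess of rises was small or lost under other settings: limma-voom on recovered reads gave 177 rises and 160 falls (52.5% rises), all 13 polyA libraries in 1 fit 229 and 219 (51.1%), and the fits without the Balb/cJ vehicle, the C57Bl/6EiJ KLA or the C57Bl/6EiJ vehicle library 147 and 157 (48.4%), 576 and 663 (46.5%) and 575 and 649 (47.0%). The median over all tested models was -0.15 as deposited and -0.01 after scaling, a shift against which the smaller changes below must be read. All 3 KLA libraries lay above both vehicle libraries in 167 of the 168 genes that rose (the exception was Adamts1, a secreted protease), beside 5.75% of all tested models, and below both in 60 of the 75 that fell, beside 18.3% of all tested models. The calls were made from these same 5 libraries, so the counts are no independent check. Of the genes that rose, 3 were AP-1 subunits (Junb, Fos and Fosl2) and 17 were on the list of early cytokines and chemokines, which left 148. Of those, 88 were on another list of gene classes described here and 60 were on none. The calls lean on the Balb/cJ libraries: without Balb/cJ KLA library 1, 77 of the 168 and 65 of the 75 lost their call, without Balb/cJ KLA library 2, 31 and 48 did, and without the Balb/cJ vehicle library, 47 and 31 did. Where a gene is said to be called under some of 21 alternative settings, these include the 5 fits that each leave out a library.

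**Figure D1:**
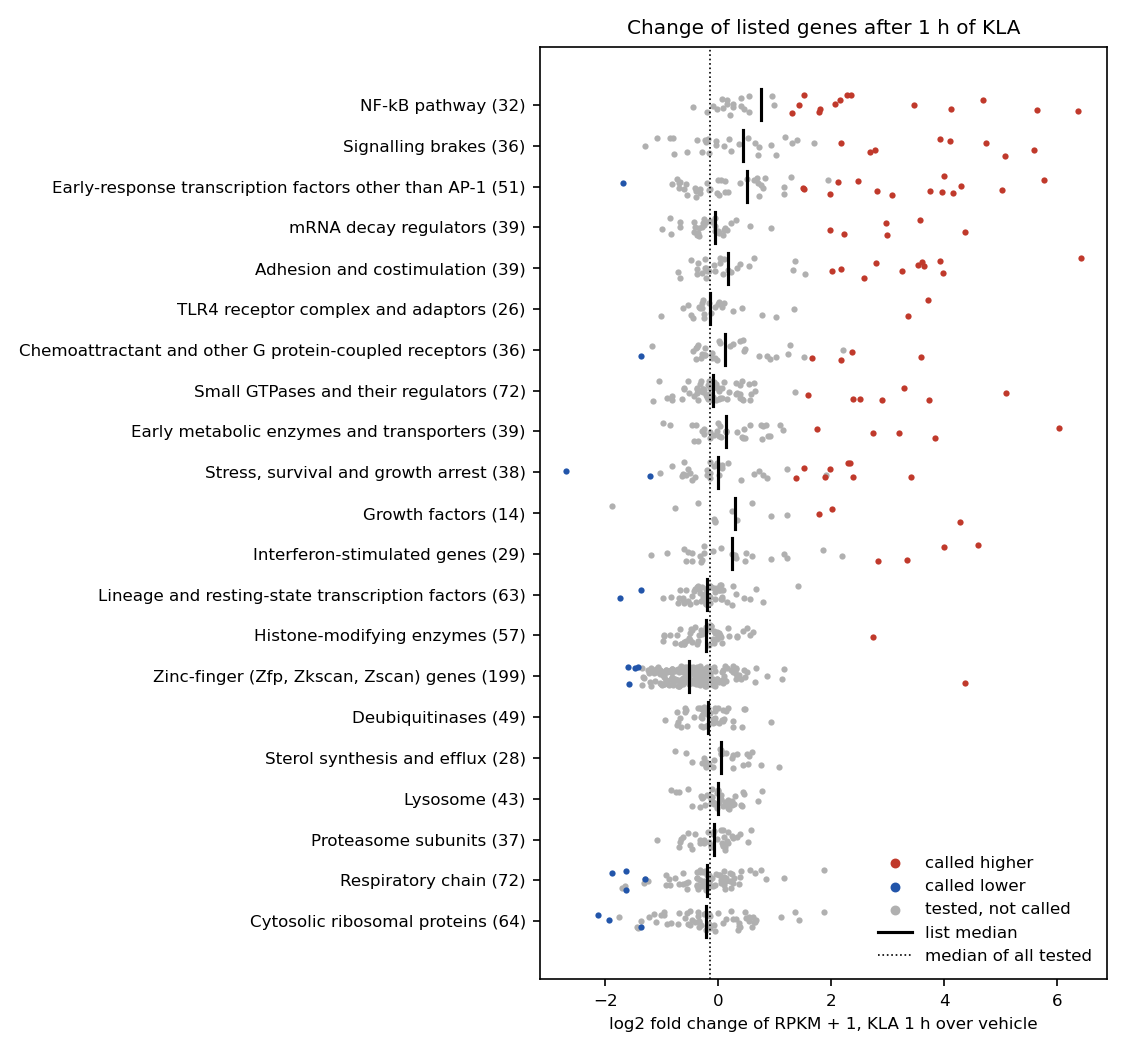
Log2 fold change of RPKM + 1 (KLA 1 h over vehicle, horizontal axis) for every tested member of 21 gene lists, with the number tested in brackets. Each point is a gene, red where it rose, blue where it fell and grey otherwise, black bars are list medians and the dotted line is the median of all tested models, -0.15. Leaving aside early cytokines and chemokines (median 2.02) and later endotoxin response genes (0.97), the NF-kB list has the highest median among these lists, 0.75. The zinc-finger list has the lowest, -0.51.

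NF-kB regulators rose most often among the signalling lists. NF-kB subunits are held in the cytoplasm by IkB proteins until IkB kinase marks these for destruction, and the genes of several IkB proteins are themselves NF-kB targets. Of 32 tested members of the NF-kB list, 14 rose and none fell, with a median of 0.75 that was 0.42 without the Balb/cJ vehicle library. Nfkbiz, which encodes a nuclear IkB protein that helps to induce secondary genes, read 3.67 and 3.67 RPKM with vehicle and 452, 374 and 351 RPKM with KLA (log2 fold change 6.37 ± 0.27, limma adjusted p = 2.36e-06). Nfkbia, the main IkB that returns NF-kB to the cytoplasm, read 23.6 and 22.8 RPKM with vehicle and 1095, 1144 and 1329.6 RPKM with KLA (log2 fold change 5.64 ± 0.27, limma adjusted p = 3.08e-06). The vehicle libraries of the strains lie close together for both genes, and the KLA libraries of both strains lie far above them.

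Other IkB genes followed at smaller sizes. Nfkbid, another nuclear IkB, stood at 153, 109.5 and 121 RPKM with KLA, against 3.21 and 5.18 with vehicle (log2 fold change 4.68 ± 0.30, limma adjusted p = 1.81e-05). Nfkbie, a cytoplasmic IkB, reached 69.8, 54.8 and 42.4 RPKM with KLA, against 3.52 and 4.4 with vehicle (log2 fold change 3.46 ± 0.29, limma adjusted p = 0.000102). Bcl3, the nuclear IkB that binds p50 and p52 dimers, read 9.6 and 13 RPKM with vehicle and 29.9, 24.1 and 37.4 RPKM with KLA (log2 fold change 1.42 ± 0.26, limma adjusted p = 0.0196). In all 3 genes the KLA libraries lie above both vehicle libraries. Nfkbib, another cytoplasmic IkB, and Rela below were chosen after their values were seen. Nfkbib read 49.6 and 25 RPKM with vehicle and 96.6, 66.5 and 66.9 RPKM with KLA and did not pass the test (log2 fold change 0.98 ± 0.31, limma adjusted p = 0.15).

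Of the 5 NF-kB subunit genes, Rel, Nfkb2 and Relb rose. Rel, which encodes c-Rel, read 6.97 and 5.9 RPKM with vehicle and 55.5, 38.1 and 27.4 RPKM with KLA (log2 fold change 2.34 ± 0.29, limma adjusted p = 0.00142). Nfkb2 (p100, the precursor of p52) had 86.8, 56.8 and 42.4 RPKM with KLA, against 8.97 and 20.5 with vehicle (log2 fold change 2.06 ± 0.41, limma adjusted p = 0.0267), and Relb, its usual partner, had 40.3, 33.4 and 32.8 RPKM with KLA, against 7.44 and 12.8 with vehicle (log2 fold change 1.79 ± 0.30, limma adjusted p = 0.00983). Rela (p65), the most studied activating subunit, read 28.5 and 47 RPKM with vehicle and 89.2, 63.5 and 62.1 RPKM with KLA, with groups that do not overlap and a limma adjusted p of 0.18, which misses the threshold. Nfkb1 (p105, the precursor of p50), named after its values were seen, read 15.8 and 21.4 RPKM with vehicle and 35.2, 22 and 20.1 RPKM with KLA and did not pass the test either (limma adjusted p = 0.557). The ubiquitin-editing enzyme gene Tnfaip3 (A20), which shuts the pathway off upstream of IkB kinase, read 36.4 and 17.8 RPKM with vehicle and 529, 505 and 439.8 RPKM with KLA (log2 fold change 4.12 ± 0.29, limma adjusted p = 3.28e-05). Further members that rose were Cflar, Tnip3, Traf1, Birc3 and Malt1, which encode regulators of cell death, ubiquitin and signalling in the same pathway, with log2 fold changes of 1.30 to 2.28. Traf1, Nfkb2 and Birc3 lost their calls without either Balb/cJ KLA library and without the Balb/cJ vehicle library, and their log2 differences in the C57Bl/6EiJ pair were 0.90, 1.02 and 1.01.

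The bases just upstream of several of these genes hold a match to the NF-kB binding motif, known as the kB site, and they are shown because the members moved together. The lines were chosen for holding a match. Of the 14 members of the NF-kB list that rose, 11 had a sequence and 6 of these held no match. Each line is the 250 bases before the RefSeq start on GRCm38.p6, read on the strand of the gene, with the matched letters in capitals. Nfkbia is at chr12:55492648-55492897 on the minus strand, Nfkbie at chr17:45555450-45555699 on the plus strand, Rel at chr11:23770970-23771219 on the minus strand and Irf1, a transcription factor gene described below, at chr11:53769764-53770013 on the plus strand.
Nfkbia: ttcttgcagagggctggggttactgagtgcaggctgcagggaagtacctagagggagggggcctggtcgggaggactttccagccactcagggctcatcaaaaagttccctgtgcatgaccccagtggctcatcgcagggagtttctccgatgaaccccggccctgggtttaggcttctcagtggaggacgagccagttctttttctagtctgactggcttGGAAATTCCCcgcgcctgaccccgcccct
Nfkbie: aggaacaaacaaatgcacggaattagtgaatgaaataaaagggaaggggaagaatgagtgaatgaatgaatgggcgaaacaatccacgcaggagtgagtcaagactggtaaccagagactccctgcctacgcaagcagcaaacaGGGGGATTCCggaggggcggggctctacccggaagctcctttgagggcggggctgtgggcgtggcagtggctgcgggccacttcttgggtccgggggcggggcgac
Rel: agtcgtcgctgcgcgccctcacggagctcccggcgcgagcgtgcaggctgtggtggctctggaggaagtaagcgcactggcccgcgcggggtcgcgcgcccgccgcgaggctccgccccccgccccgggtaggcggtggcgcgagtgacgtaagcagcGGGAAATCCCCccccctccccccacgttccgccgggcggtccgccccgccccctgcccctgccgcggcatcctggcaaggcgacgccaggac
Irf1: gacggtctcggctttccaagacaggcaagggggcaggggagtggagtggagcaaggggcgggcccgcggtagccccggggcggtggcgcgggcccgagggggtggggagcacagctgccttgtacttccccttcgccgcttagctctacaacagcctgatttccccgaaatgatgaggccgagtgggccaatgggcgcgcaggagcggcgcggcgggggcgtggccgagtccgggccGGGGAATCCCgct
The matched stretch begins 29 bases before the start in Nfkbia, 106 in Nfkbie, 92 in Rel and 13 in Irf1. Both strands were searched, and overlapping matches in Rel were merged into 1 stretch. Such a match was found in 9.0% of the 8185 tested models with a sequence of this length. The table of sequences covered 77.4% of the genes that rose, which is under 80%, so no share is given for them. A match is a description of the letters and not evidence of binding.

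The receptor side of the pathway moved little. Of 26 tested members of the TLR4 receptor and adaptor list, 2 rose and none fell, with a median of -0.15, the same as all tested models, that was -0.31 without either C57Bl/6EiJ library. Cd14, the surface protein that hands endotoxin to TLR4, read 18.3 and 44.8 RPKM with vehicle and 449.8, 567 and 238 RPKM with KLA (log2 fold change 3.71 ± 0.46, limma adjusted p = 0.00135). Tlr2, the receptor for bacterial lipoproteins, read 3.15 and 5.66 RPKM with vehicle and 92.2, 58.1 and 31.8 RPKM with KLA (log2 fold change 3.36 ± 0.41, limma adjusted p = 0.0013). The C57Bl/6EiJ KLA library was the lowest of the 3 KLA libraries for both. Myd88, the adaptor shared by most Toll-like receptors, stood at 9.68 and 18.8 RPKM with vehicle and 41.1, 34.4 and 30.0 RPKM with KLA and missed the threshold (log2 fold change 1.34 ± 0.32, limma adjusted p = 0.0659). Irak2, a kinase that sustains signalling from the adaptor, also missed it at 14.9 and 27.3 RPKM with vehicle and 37.1, 30.0 and 34.5 RPKM with KLA (limma adjusted p = 0.224).

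Genes that restrain cytokine and MAP kinase signalling formed another group of regulators. Of 36 tested members of this list of signalling brakes, 8 rose and none fell, with a median of 0.45 that was 0.25 without the Balb/cJ vehicle library or without Balb/cJ KLA library 1. Socs3, an inhibitor of JAK-STAT signalling, read 4.39 and 4.45 RPKM with vehicle and 205, 257 and 307 RPKM with KLA (log2 fold change 5.59 ± 0.28, limma adjusted p = 3.08e-06). Dusp1, a nuclear phosphatase that inactivates p38 and JNK, read 16.1 and 55.3 RPKM with vehicle and 759, 888 and 1183 RPKM with KLA (log2 fold change 5.08 ± 0.33, limma adjusted p = 1.95e-05). Both genes were highest in the C57Bl/6EiJ KLA library, and the vehicle libraries differed for Dusp1 but not for Socs3.

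Phosphatases with different substrates rose beside it. Dusp2, a nuclear phosphatase, had 41.1, 109 and 122 RPKM with KLA, against 1.06 and 5.17 with vehicle (log2 fold change 4.74 ± 0.40, limma adjusted p = 0.000102). Dusp5, specific for nuclear ERK, had 89, 75.9 and 101 RPKM with KLA, against 4.08 and 6.48 with vehicle (log2 fold change 3.92 ± 0.27, limma adjusted p = 2.69e-05). Dusp4 and Dusp8, which act on ERK and on p38 and JNK, rose by 2.69 ± 0.32 and 2.18 ± 0.26 on the log2 scale. Errfi1, which blocks EGF receptor family kinases, stood at 47.5, 67.7 and 36.4 RPKM with KLA, against 1.28 and 2.65 with vehicle, and Trib1, a pseudokinase that targets C/EBP proteins for destruction, rose by 2.77 ± 0.33. Of these 8 genes, 6 were highest in the C57Bl/6EiJ KLA library, whereas over all genes that rose it was the highest library for 34 of 168.

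Early-response transcription factors outside the AP-1 family included 14 of 51 that rose and 1 that fell, with a median of 0.51 that was 0.07 without the Balb/cJ vehicle library. Egr1, a zinc-finger activator induced by ERK through serum response factor, read 4.73 and 4.69 RPKM with vehicle and 196, 275 and 451 RPKM with KLA (log2 fold change 5.76 ± 0.32, limma adjusted p = 7.65e-06). Egr2 read 35 and 47.3 RPKM with vehicle and 177, 268 and 409.6 RPKM with KLA (log2 fold change 2.81 ± 0.30, limma adjusted p = 0.000542), and Egr3 read 0.112 and 0.462 RPKM with vehicle and 8.37, 12.2 and 8.75 RPKM with KLA (log2 fold change 3.07 ± 0.29, limma adjusted p = 0.000223). The vehicle levels of the 3 differ widely, with Egr2 already expressed and Egr3 below 1 RPKM, and in each gene all KLA libraries lie above both vehicle libraries. The 250 bases before the start of Egr2 (chr10:67537619-67537868, plus strand, GRCm38.p6) hold a CArG box, the letters bound by serum response factor, in capitals and 72 bases before the start.
Egr2: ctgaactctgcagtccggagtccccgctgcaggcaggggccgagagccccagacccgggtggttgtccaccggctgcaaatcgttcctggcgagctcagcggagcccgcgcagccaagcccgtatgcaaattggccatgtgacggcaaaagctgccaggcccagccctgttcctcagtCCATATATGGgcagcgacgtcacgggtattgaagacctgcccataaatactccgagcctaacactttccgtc
A CArG box was found in 1.0% of the 8185 tested models with such a sequence. Of the 10 early-response factors that rose and had a sequence, Egr2 was the 1 that held it.

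Members of the IER group of immediate early genes rose beside the EGR factors. Ier3 read 1.97 and 1.53 RPKM with vehicle and 47.9, 49.8 and 48.4 RPKM with KLA (log2 fold change 4.16 ± 0.26, limma adjusted p = 1.44e-05) and varied little between the KLA libraries. Ier2 read 5.9 and 16.5 RPKM with vehicle and 73.9, 187 and 239 RPKM with KLA (log2 fold change 3.96 ± 0.38, limma adjusted p = 0.000251), with Balb/cJ library 1 the lowest of the KLA libraries. Csrnp1, a nuclear factor named for its induction by AXIN1, read 3.7 and 16.7 RPKM with vehicle and 281, 287 and 249 RPKM with KLA (log2 fold change 5.02 ± 0.42, limma adjusted p = 0.000102). Ier5l, a relative of Ier2, was the member that fell, at 7.41 and 6.65 RPKM with vehicle and 0.969, 1.76 and 1.78 RPKM with KLA (log2 fold change -1.68 ± 0.29, limma adjusted p = 0.0119), called under 11 of the 20 alternative settings that tested it.

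Interferon, MAF and nuclear receptor factors were also among them. Irf1, an activator of interferon and antigen presentation genes, read 21.1 and 14.7 RPKM with vehicle and 245, 272 and 249 RPKM with KLA (log2 fold change 3.74 ± 0.28, limma adjusted p = 4.28e-05), with KLA libraries close together. Maff, a small MAF protein without an activation domain, read 3.06 and 1.8 RPKM with vehicle and 107, 64.8 and 49.1 RPKM with KLA (log2 fold change 4.29 ± 0.30, limma adjusted p = 2.86e-05). Nr4a1, an orphan nuclear receptor, read 0.692 and 0.675 RPKM with vehicle and 17.3, 33.7 and 28.4 RPKM with KLA (log2 fold change 4.00 ± 0.31, limma adjusted p = 6.52e-05). Myc stood at 26.6, 22.4 and 62.5 RPKM with KLA, against 4.29 and 8.29 with vehicle (log2 fold change 2.48 ± 0.27, limma adjusted p = 0.000577) and was highest in the C57Bl/6EiJ library. Klf2 and Klf6, Kruppel-like factors, rose by 2.11 ± 0.28 and 1.52 ± 0.27 on the log2 scale, and Ifrd1 and Ets2 rose by 1.98 ± 0.30 and 1.50 ± 0.32.

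Regulators of mRNA decay showed 6 rises in 39 and no fall, with a median of -0.06 that was 0.08 with libraries scaled to equal medians or after quantile normalization and -0.20 without either C57Bl/6EiJ library. Zfp36 (tristetraprolin), which binds AU-rich elements of cytokine mRNAs and brings in deadenylases, read 32 and 52.8 RPKM with vehicle and 585, 833 and 1074 RPKM with KLA (log2 fold change 4.37 ± 0.29, limma adjusted p = 2.1e-05). Zc3h12a (Regnase-1), an endonuclease that cuts stem-loops in mRNAs such as that of Il6, read 4.43 and 13.5 RPKM with vehicle and 106, 54.9 and 50.5 RPKM with KLA (log2 fold change 2.98 ± 0.45, limma adjusted p = 0.00549), and its relative Zc3h12c rose by 1.97 ± 0.26. Noct (nocturnin), first described as a deadenylase with a circadian rhythm, read 2.23 and 3.49 RPKM with vehicle and 62.6, 39.3 and 36 RPKM with KLA (log2 fold change 3.57 ± 0.32, limma adjusted p = 0.000161). Btg2 and Btg1, adaptors that link RNA-binding proteins to the CCR4-NOT deadenylase, rose by 2.96 ± 0.36 and 2.23 ± 0.45.

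**Figure D2:**
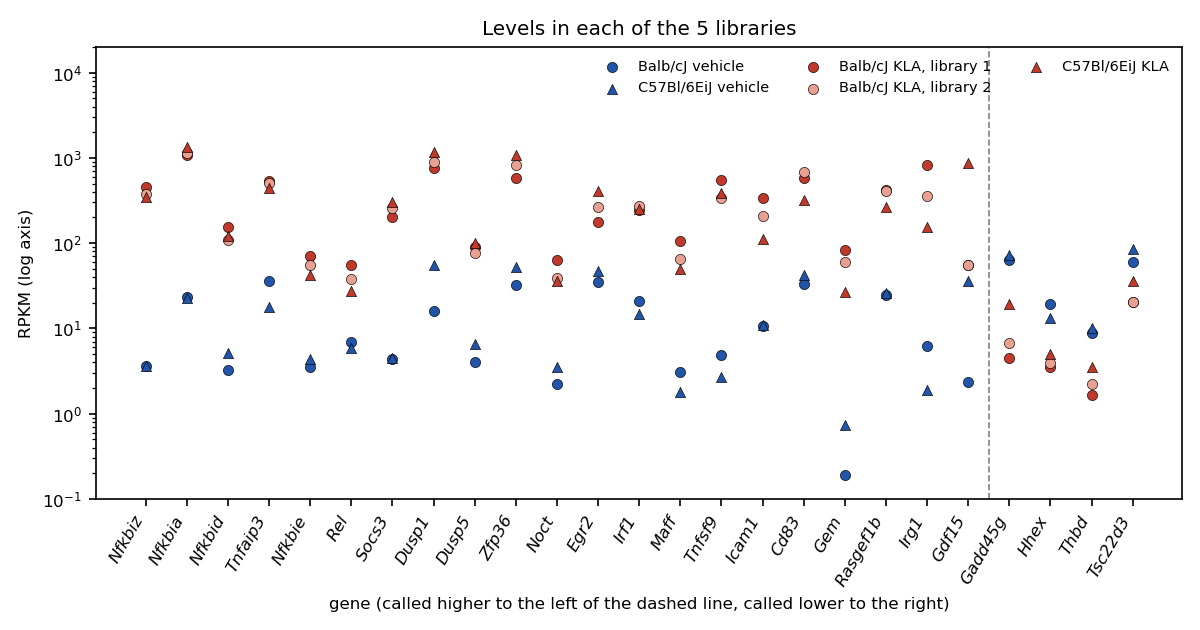
RPKM on a log axis in each of the 5 libraries for 25 genes named in the text, blue for vehicle and red for KLA, circles for Balb/cJ and triangles for C57Bl/6EiJ. Genes to the left of the dashed line rose and those to the right fell; in each gene shown all KLA points lie on 1 side of both vehicle points, and Gdf15 shows the widest gap between strains.

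Adhesion and costimulation genes rose in 11 of 39 cases with no fall and a median of 0.17 that was 0.08 without the Balb/cJ vehicle library and 0.09 without Balb/cJ KLA library 1. Tnfsf9 (4-1BB ligand), a costimulator of T cells, read 4.88 and 2.72 RPKM with vehicle and 554, 338 and 388 RPKM with KLA (log2 fold change 6.42 ± 0.31, limma adjusted p = 3.08e-06). Icam1, the ligand of the LFA-1 integrin on leukocytes, read 10.8 and 11 RPKM with vehicle and 337, 211 and 113 RPKM with KLA (log2 fold change 3.97 ± 0.36, limma adjusted p = 0.000161). Cd83, which stabilises MHC class II at the surface, read 33.3 and 41.8 RPKM with vehicle and 582, 687 and 317 RPKM with KLA (log2 fold change 3.64 ± 0.34, limma adjusted p = 0.00021). The vehicle levels of these genes differ by less than 2-fold between strains, and the C57Bl/6EiJ library was the lowest KLA library for Icam1 and Cd83.

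Other costimulators and adhesion genes rose from a range of vehicle levels, with Cd40, Icosl, Vcam1, F3 and Olr1 under 2 RPKM in both vehicle libraries. Cd40, the receptor for T cell help, stood at 39.3, 32.5 and 19.6 RPKM with KLA, against 1.32 and 1.69 with vehicle (log2 fold change 3.54 ± 0.30, limma adjusted p = 0.000103). Icosl (ICOS ligand), Vcam1 and the coagulation starter F3 (tissue factor) rose by 2.17 ± 0.28, 2.57 ± 0.35 and 2.79 ± 0.36 on the log2 scale. Clec4e (Mincle), a lectin receptor for mycobacterial glycolipids, had 183, 103 and 43.2 RPKM with KLA, against 13.3 and 3.74 with vehicle (log2 fold change 3.25 ± 0.31, limma adjusted p = 0.000237), and Olr1, a scavenger receptor for oxidised LDL, had 26.7, 12.8 and 8.29 RPKM with KLA, against 0 and 0.433 with vehicle (log2 fold change 3.61 ± 0.41, limma adjusted p = 0.000791). Sdc4, a heparan sulphate proteoglycan of focal contacts, and Itga5, the fibronectin receptor subunit, rose by 3.92 ± 0.46 and 2.01 ± 0.37. Balb/cJ KLA library 1 was the highest library for 10 of the 11, beside 111 of all 168 genes that rose.

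Small GTPases and their regulators rose in 7 of 72 cases without a fall, with a median of -0.08 that was 0.06 with libraries scaled to equal medians, 0.01 after quantile normalization and -0.02 without either C57Bl/6EiJ library. Gem, a GTPase that restrains calcium channels, read 0.19 and 0.74 RPKM with vehicle and 83.5, 60.2 and 26.6 RPKM with KLA (log2 fold change 5.09 ± 0.40, limma adjusted p = 6.68e-05). Rasgef1b, an exchange factor of the Ras family known as an early endotoxin response gene, read 24.5 and 26.1 RPKM with vehicle and 419, 414 and 265 RPKM with KLA (log2 fold change 3.72 ± 0.29, limma adjusted p = 6.49e-05). Both Balb/cJ KLA libraries exceeded the C57Bl/6EiJ one for both genes. Rnd1, a small G protein that lacks GTPase activity and loosens the cytoskeleton, had 34.3, 11.5 and 9.52 RPKM with KLA, against 1.75 and 0.479 with vehicle (log2 fold change 2.89 ± 0.40, limma adjusted p = 0.00276). Cdc42ep2 and Cdc42ep4, effectors of Cdc42, rose by 3.29 ± 0.32 and 1.59 ± 0.34. Cdc42ep2 was called under 21 of 21 alternatives, and Cdc42ep4 (limma adjusted p = 0.0432) under 8 of 21, with a log2 difference of 0.86 in the C57Bl/6EiJ pair. The list also holds Ralgds and Rrad, which rose by 2.39 ± 0.29 and 2.51 ± 0.35. All 7 were highest in Balb/cJ KLA library 1, as were 111 of the 168 genes that rose.

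Receptors coupled to G proteins rose in 4 of 36 cases and fell in 1, with a median of 0.12 that was 0.04 without the Balb/cJ vehicle library. Ccrl2, an atypical receptor that presents chemerin, read 67 and 93.5 RPKM with vehicle and 1340.5, 1117 and 669.6 RPKM with KLA (log2 fold change 3.59 ± 0.34, limma adjusted p = 0.000237) and was among the 10 most abundant of the genes that rose. Adora2b, the low-affinity adenosine receptor, had 2 reads over the vehicle libraries and 296 over the KLA libraries, a ratio of read rates of 75.1 with an exact 95% interval of 20.6 to 623 that covers counting error only. Gpr84, a receptor for medium-chain fatty acids, read 0.828 and 0.113 RPKM with vehicle and 10.1, 6.48 and 3.38 RPKM with KLA (log2 fold change 2.17 ± 0.29, limma adjusted p = 0.00252), and Gpr132 rose by 1.67 ± 0.27. Lpar6, a lysophosphatidic acid receptor, fell at 8.14 and 5.02 RPKM with vehicle and 1.55, 2.04 and 2.24 RPKM with KLA (log2 fold change -1.36 ± 0.29, limma adjusted p = 0.0429), called under 6 of the 20 alternatives that tested it. Hcar2, the niacin receptor, was at 0 with vehicle and at 12.8, 5.39 and 0.791 RPKM with KLA, and missed the threshold (limma adjusted p = 0.0614).

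Metabolic enzymes and transporters rose in 5 of 39 cases and fell in none, with a median of 0.14 that was -0.01 without the Balb/cJ vehicle library. Irg1 (Acod1), which makes itaconate from a TCA cycle intermediate, read 6.29 and 1.87 RPKM with vehicle and 824, 356 and 156 RPKM with KLA (log2 fold change 6.03 ± 0.37, limma adjusted p = 1.44e-05), and its KLA libraries spread widely with C57Bl/6EiJ lowest. Ptgs2 (COX-2), the inducible step of prostaglandin synthesis, read 0.96 and 0.453 RPKM with vehicle and 68.5, 31.2 and 9.33 RPKM with KLA (log2 fold change 3.84 ± 0.44, limma adjusted p = 0.000791) with the same order. Slc25a25, a mitochondrial carrier of ATP-Mg and phosphate, read 2.29 and 5.35 RPKM with vehicle and 32.3, 37.3 and 45.8 RPKM with KLA (log2 fold change 3.20 ± 0.27, limma adjusted p = 0.000102) and was highest in C57Bl/6EiJ. Slc2a6 (GLUT6) and Sod2, the mitochondrial superoxide dismutase, rose by 2.74 ± 0.29 and 1.74 ± 0.29.

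Stress, survival and growth arrest genes moved both ways, with 8 rises and 2 falls in 38 and a median of -0.01 that was 0.13 with libraries scaled to equal medians and -0.10 without Balb/cJ KLA library 1. Ppp1r15a (GADD34), the phosphatase subunit that restores translation after stress, read 16.5 and 36.2 RPKM with vehicle and 306, 280.4 and 212 RPKM with KLA (log2 fold change 3.41 ± 0.36, limma adjusted p = 0.000471). Cdkn1a (p21), an inhibitor of cyclin-dependent kinases, read 35.1 and 49.4 RPKM with vehicle and 307, 216 and 173 RPKM with KLA (log2 fold change 2.39 ± 0.33, limma adjusted p = 0.00288). Its relative Cdkn1b (p27) fell, from 14.9 and 14.3 RPKM with vehicle to 6.72, 5.64 and 5.38 with KLA (log2 fold change -1.20 ± 0.25, limma adjusted p = 0.0379), with groups that do not overlap. The fall of Cdkn1b was called under 8 of 21 alternatives and the rise of Cdkn1a under 20 of 21.

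The GADD45 family, small proteins that bind p38 and growth arrest kinases, split in the same way. Gadd45b rose, at 65.1 and 127 RPKM with vehicle and 302, 361 and 316 RPKM with KLA (log2 fold change 1.89 ± 0.32, limma adjusted p = 0.0107). Gadd45g fell, at 63.6 and 71.7 RPKM with vehicle and 4.48, 6.65 and 19.2 RPKM with KLA (log2 fold change -2.69 ± 0.36, limma adjusted p = 0.00233), and was called under 19 of 21 alternatives. The vehicle libraries of Gadd45g differ by little, and the C57Bl/6EiJ KLA library kept the most. Plk2 and Plk3, polo-like kinases of the stress response, rose by 1.51 ± 0.27 and 1.37 ± 0.27. Bcl2l11 (BIM), which promotes cell death, rose by 1.97 ± 0.38. The survival genes Bcl2a1b and Bcl2a1d were called higher too, but they are near-identical copies that share reads, and their values are uncertain.

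Of 14 growth factor genes tested, 3 rose, with a median of 0.29 that was 0.16 without Balb/cJ KLA library 2 and 0.17 without the Balb/cJ vehicle library. Gdf15, a stress-induced member of the TGF-beta family, read 2.37 and 35.9 RPKM with vehicle and 54.7, 54.9 and 877 RPKM with KLA (log2 fold change 4.27 ± 0.28, limma adjusted p = 1.95e-05). The C57Bl/6EiJ libraries exceeded the Balb/cJ ones with vehicle and with KLA, and the log2 differences within strains were close, at 4.05 in Balb/cJ and 4.57 in C57Bl/6EiJ. Without the strain covariate the gene was not called. Inhba (activin A) had 11.1, 4.79 and 2.42 RPKM with KLA, against 0.28 and 0.633 with vehicle (log2 fold change 2.01 ± 0.43, limma adjusted p = 0.0429) and was called under 7 of the 20 alternatives that tested it. Hbegf, a ligand of the EGF receptor, had 13.2, 16.6 and 4.29 RPKM with KLA, against 2.35 and 1.33 with vehicle (log2 fold change 1.78 ± 0.30, limma adjusted p = 0.0121).

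Interferon-stimulated genes rose in 4 of 29 cases with a median of 0.25 that was 0.07 without Balb/cJ KLA library 1. Ifnb1, which encodes interferon beta, had 0 reads over the vehicle libraries and 276 over the KLA libraries, at least 46.7-fold higher against a floor of 3 reads over the group. Isg15, a ubiquitin-like modifier, read 2.27 and 1.4 RPKM with vehicle and 178, 104 and 26.6 RPKM with KLA (log2 fold change 4.59 ± 0.42, limma adjusted p = 0.000172). Gbp5, a GTPase that attacks intracellular bacteria, read 1.14 and 0.437 RPKM with vehicle and 103, 35.3 and 9.3 RPKM with KLA (log2 fold change 3.99 ± 0.51, limma adjusted p = 0.00176). Ifit1, a sensor of uncapped viral RNA, read 1.3 and 1.3 RPKM with vehicle and 99.1, 33.7 and 5.6 RPKM with KLA (log2 fold change 3.33 ± 0.64, limma adjusted p = 0.0231), and Oasl1 read 12.1 and 3.73 RPKM with vehicle and 256, 109 and 14.4 RPKM with KLA (log2 fold change 2.83 ± 0.48, limma adjusted p = 0.0109). All 4 stood in 1 order among KLA libraries, Balb/cJ library 1 over library 2 over C57Bl/6EiJ, which 94 of all 168 genes that rose share. Rsad2 (viperin) had the same order at 8.48 and 12.3 RPKM with vehicle and 178, 51.3 and 19.8 RPKM with KLA and did not pass the test (limma adjusted p = 0.113). Of 15 genes listed as later endotoxin response genes, 4 rose (Gbp5, Ccl5, Il27 and Il12b). Among them Il12b had 0 vehicle reads and 294 KLA reads (at least 49.7-fold higher).

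Of 57 genes for histone-modifying enzymes, 1 rose (1.75%, near the 1.66% of all tested models) and none fell. The one that rose was Kdm6b, the JMJD3 demethylase that removes the repressive H3K27 mark, at 6.45 and 6.2 RPKM with vehicle and 98, 42.6 and 32.3 RPKM with KLA (log2 fold change 2.74 ± 0.38, limma adjusted p = 0.00314). The list median was -0.21 as deposited and -0.07 after scaling to equal medians. The next largest change, of the methyltransferase gene Setd1b, was -0.98 ± 0.26 and did not pass the test (limma adjusted p = 0.0952).

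Of the models that rose, 4 were noncoding. Mir155hg, the host transcript of miR-155, had 0 reads in both vehicle libraries and 18.9, 11.3 and 11.5 RPKM with KLA, 552 reads in all, which makes it at least 93.4-fold higher against a floor of 3 reads over the group. It was the only one of 16 tested microRNA hosts, snoRNA hosts and abundant noncoding RNAs that rose. The host is on chromosome 16, and RefSeq places both mature miRNAs within it, at chr16:84714143-84714165 and chr16:84714182-84714202 on the plus strand. They are shown because miR-155 is the regulator that this transcript carries, with the seed (bases 2 to 8) in capitals.
mmu-miR-155-5p: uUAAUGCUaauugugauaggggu
mmu-miR-155-3p: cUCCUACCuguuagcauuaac
The seeds differ, and mature miRNA itself was not measured by these polyA libraries. Gm14023 read 1.2 and 2.02 RPKM with vehicle and 162, 170.3 and 59.4 RPKM with KLA (log2 fold change 5.42 ± 0.40, limma adjusted p = 4.08e-05), but 222 bases of its exons lie opposite those of Il1a. E230013L22Rik read 2.07 and 3.64 RPKM with vehicle and 12.2, 8.12 and 11.4 RPKM with KLA (log2 fold change 1.66 ± 0.28, limma adjusted p = 0.0108) and overlaps Rab20, which also rose, by 313 bases on the other strand. Strand use in counting is not given in the sources used here, so the reads of such partners cannot be told apart. The remaining one, 4930487H11Rik, had 0 vehicle reads and 44 KLA reads (at least 7.45-fold higher).

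Among the 60 genes that rose and were on no list, Marcksl1, a regulator of actin, read 8.02 and 4.61 RPKM with vehicle and 761, 333 and 115 RPKM with KLA (log2 fold change 5.19 ± 0.43, limma adjusted p = 9.06e-05). Tnfaip2, a TNF-induced protein of membrane protrusions, was the most abundant of them at 133 and 184 RPKM with vehicle and 1636, 1102 and 731 RPKM with KLA (log2 fold change 2.75 ± 0.36, limma adjusted p = 0.00202). Both were lowest among KLA libraries in C57Bl/6EiJ. The rest of this paragraph names genes chosen after their values were seen. Nlrp3, an inflammasome sensor, read 2.77 and 4.79 RPKM with vehicle and 219, 123 and 57 RPKM with KLA (log2 fold change 4.54 ± 0.46, limma adjusted p = 0.000322), and Pde4b, the main endotoxin-induced cAMP phosphodiesterase, read 3.08 and 3.64 RPKM with vehicle and 90.0, 64.5 and 36.2 RPKM with KLA (log2 fold change 3.71 ± 0.34, limma adjusted p = 0.000161). Mefv (pyrin) and Nod2, further sensors of innate immunity, rose by 1.60 ± 0.31 and 1.29 ± 0.28 from vehicle levels under 2 RPKM. Trex1, the cytosolic DNA exonuclease, had 114, 73.8 and 56.5 RPKM with KLA, against 7.68 and 7.64 with vehicle (log2 fold change 3.12 ± 0.31, limma adjusted p = 0.00029), and Prdm1 (BLIMP1), a repressor, had 50.9, 38.1 and 35 RPKM with KLA, against 4.19 and 5.45 with vehicle (log2 fold change 2.84 ± 0.29, limma adjusted p = 0.000327). Pim1 and Pim3, short-lived survival kinases, rose by 2.66 ± 0.27 and 1.50 ± 0.32. Il10ra and Tnfrsf1b, receptors for interleukin 10 and TNF, rose by 2.01 ± 0.36 and 1.45 ± 0.31. Actg1 and Ppih were called higher from low levels and have near-identical copies elsewhere in the genome, so their values are uncertain.

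Genes that fell numbered 75 against 168 that rose, a difference that turned round in the fits without the Balb/cJ vehicle library and without either C57Bl/6EiJ library. Of the 75, 18 were on a list, and 43 were called in at most 1 of every 2 alternative settings, beside 18 of the 168 that rose. None of the 75 and 60 of the 168 were called in every alternative. Balb/cJ vehicle exceeded C57Bl/6EiJ vehicle in 65 of the 75 (86.7%), beside 43.5% of all tested models. In 39 of the 75 the gap was over 2-fold, and in the other 36 the vehicle libraries stood within 2-fold.

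The 36 with similar vehicle levels include regulators. Of 63 lineage and resting-state transcription factors tested, none rose and 2 fell, with a median of -0.20 as deposited and -0.06 after scaling. Hhex, a homeobox factor of haematopoietic and endothelial cells, read 19.1 and 13.2 RPKM with vehicle and 3.48, 3.88 and 5.05 RPKM with KLA (log2 fold change -1.73 ± 0.28, limma adjusted p = 0.00929). Hhex was called under 16 of 21 alternatives, and its groups do not overlap.

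Regulators outside the lists were among them too, and of those below Thbd, Arrdc3 and Grhpr were chosen after their values were seen. Tsc22d3 (GILZ), the glucocorticoid-induced inhibitor of NF-kB, read 59.7 and 86.1 RPKM with vehicle and 20.2, 20.4 and 35.8 RPKM with KLA (log2 fold change -1.40 ± 0.26, limma adjusted p = 0.0219). Thbd (thrombomodulin), which turns thrombin into an anticoagulant, read 8.85 and 10.2 RPKM with vehicle and 1.64, 2.25 and 3.56 RPKM with KLA (log2 fold change -1.55 ± 0.27, limma adjusted p = 0.0127). F3, which starts coagulation, rose as given above. Arrdc3, an arrestin relative that controls receptor traffic, and Grhpr, an enzyme of glyoxylate metabolism, fell by 1.46 ± 0.26 and 1.37 ± 0.27 on the log2 scale. In all 4 genes the C57Bl/6EiJ vehicle library was the higher of the vehicle libraries, and the KLA libraries lie below both.

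**Figure D3:**
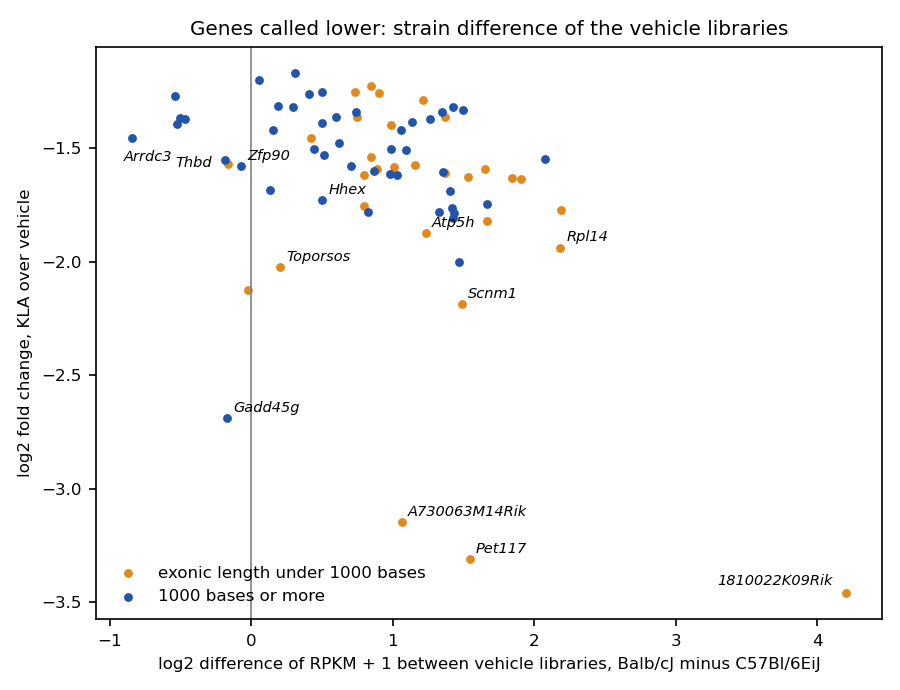
Log2 fold change of the 75 genes that fell (vertical axis) against the log2 difference of RPKM + 1 between the Balb/cJ and C57Bl/6EiJ vehicle libraries (horizontal axis), orange for exonic length under 1000 bases. Most points lie to the right of 0, as 65 of 75 were higher in the Balb/cJ vehicle library, while Gadd45g, Thbd and Arrdc3 lie to its left.

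The 39 with higher Balb/cJ vehicle levels tended to be short transcripts. Their median exonic length was 966 bases, beside 1660 in the other 36 and 2692 over all tested models. Models under 1000 bases numbered 20 of the 39 and 10 of the 36, beside 8.6% of all tested models. In the C57Bl/6EiJ pair, 35 of the 39 and 33 of the 36 were lower by 2-fold or more. The shortest models, of at least 200 and under 500 bases, were called lower in 8.82% of 102 cases and higher in none, beside 0.188% and 1.01% of models of 4000 bases or more. Examples are 1810022K09Rik, 395 bases long, at 136 and 6.44 RPKM with vehicle and 18.4, 3.46 and 0 RPKM with KLA, and Pet117, a respiratory assembly factor of 319 bases, at 38.8 and 12.6 RPKM with vehicle and 3.82, 0.953 and 0.963 RPKM with KLA. Pet117 shares 273 bases of exon with Csrp2bp on the same strand. A730063M14Rik, a noncoding model of 327 bases, had 28 reads over the vehicle libraries and 1 over the KLA libraries (ratio of read rates 55.2, exact 95% interval 9.12 to 2260). Of the genes that fell 7 were noncoding, the other 6 being 1300002E11Rik, AV051173, 3110056K07Rik, Hmga2-ps1, E130102H24Rik and Toporsos. With a trend on exonic length removed from each library, 52 of the 75 kept their call and no other gene fell, and with a trend on GC content removed 58 of the 75 kept it. The part of depth in these falls was not tested.

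Housekeeping complexes showed scattered falls. Of 72 respiratory chain genes 4 fell and none rose, with a median of -0.20 that was -0.06 with libraries scaled to equal medians and -0.09 without the C57Bl/6EiJ KLA library. Atp5h, a subunit of ATP synthase, read 131 and 55.2 RPKM with vehicle and 49.6, 28.2 and 13 RPKM with KLA (log2 fold change -1.88 ± 0.31, limma adjusted p = 0.0101), and Ndufa5, of complex I, read 54.3 and 14.4 RPKM with vehicle and 25.4, 13.5 and 3.4 RPKM with KLA (log2 fold change -1.63 ± 0.31, limma adjusted p = 0.0235). Ndufv3 and Ndufc1 fell by 1.63 ± 0.36 and 1.29 ± 0.26. In all 4 the Balb/cJ vehicle library was the highest by over 2-fold. Cox17, a copper chaperone of cytochrome oxidase outside that list, read 123 and 70.2 RPKM with vehicle and 33.9, 32.4 and 22.1 RPKM with KLA (log2 fold change -1.76 ± 0.27, limma adjusted p = 0.00545) and was called under 19 of 21 alternatives. Of 64 cytosolic ribosomal protein genes 3 fell: Rpl14, Rpl35a and Rpl7 fell by 1.94 ± 0.35, 2.13 ± 0.38 and 1.36 ± 0.29 on the log2 scale. Ribosomal protein genes have many near-identical copies and their values are uncertain, and Rps6 at 0.219 to 2.77 RPKM and Gapdh at 0 to 1.09 RPKM stood far below what such genes usually reach.

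Zinc-finger genes lay below other genes as a class without many single calls. The list holds every tested symbol made of Zfp, Zkscan or Zscan and a number, and many of these encode DNA-binding repressors of the KRAB and SCAN families. Of 199 tested, 4 fell and 1 rose, and the one that rose was Zfp36, the decay factor described above. The list median was -0.51, beside -0.15 over all tested models, and -0.37 beside -0.01 after scaling to equal medians. The change was below 0 in 171 of the 199, beside 6507 of all 10147 tested models, and after scaling in 161, beside 5156. In 99 of them (49.7%) all KLA libraries lay below both vehicle libraries, beside 18.3% of all tested models, and after scaling in 72 (36.2%), beside 10.3%. Against the vehicle library of the same strain the medians were -0.44 and -0.58 in the Balb/cJ KLA libraries and -0.38 in C57Bl/6EiJ. These genes were expressed at a median of 2.84 RPKM, beside 8.34 over all tested models, and whether other genes of that level lay as low was not tested.

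Zfp90 read 6.18 and 6.54 RPKM with vehicle and 2.19, 1.27 and 1.17 RPKM with KLA (log2 fold change -1.58 ± 0.29, limma adjusted p = 0.0175). Zfp120 read 10.6 and 5.36 RPKM with vehicle and 2.74, 1.81 and 1.6 RPKM with KLA (log2 fold change -1.60 ± 0.28, limma adjusted p = 0.0147). Zscan22 and Zfp930 fell by 1.48 ± 0.30 and 1.42 ± 0.31 on the log2 scale. They were called under 7 and 6 of the 20 alternatives that tested them, and Zfp90 and Zfp120 under 11 and 10 of 20. The KLA libraries of both strains lay below both vehicle libraries in all 4.

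**Figure D4:**
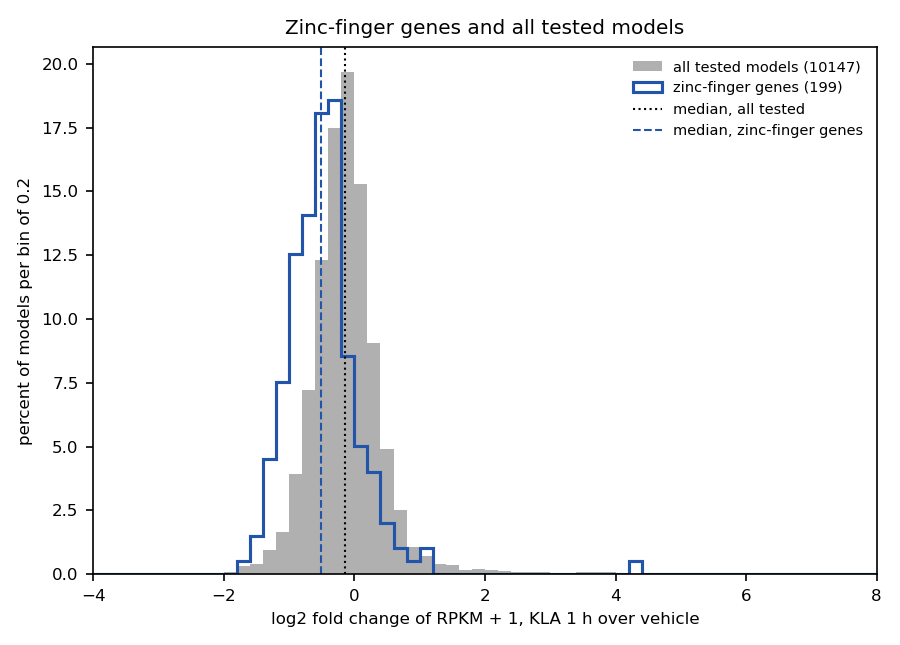
Percent of models per bin of 0.2 in log2 fold change of RPKM + 1 (KLA 1 h over vehicle), grey for all 10147 tested models and blue for the 199 zinc-finger genes, with medians as vertical lines. The zinc-finger outline is shifted left of the grey bars, with a median of -0.51 against -0.15.

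Several classes held no gene that passed the test. Sterol synthesis and efflux (28 tested, median 0.05), deubiquitinases (49, -0.18), proteasome subunits (37, -0.08) and lysosome genes (43, 0.00) had no rise and no fall by limma. With 1 library left out these medians ranged from 0.04 to 0.1, -0.22 to -0.13, -0.21 to 0.01 and -0.06 to 0.09. Members with an unadjusted limma p under 0.05 numbered 4, 5, 5 and 4 in that order, and limma-voom called 0 in each list. Of 19 cell cycle genes 1 fell, Birc5 (survivin), at 6.19 and 3 RPKM with vehicle and 0.72, 1.1 and 0.954 RPKM with KLA (log2 fold change -1.54 ± 0.32, limma adjusted p = 0.0342). Birc5 was called under 5 of the 20 alternatives that tested it. Mki67, the marker of cycling cells, read 2.12 and 1.02 RPKM with vehicle and 22.9, 8.94 and 3.21 RPKM with KLA and did not pass the test (limma adjusted p = 0.0574).

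Genes that rose spanned less of the genome than tested genes at large, a feature the selection did not use. Their median span on the genome was 9.12 kb, beside 7.92 kb for genes that fell and 20.6 kb over all tested models. Models of 1 or 2 exons made up 23.2% of genes that rose and 17.6% of those that fell, beside 6.7% of all tested. Median exonic length was 2386 bases for genes that rose, 1177 for genes that fell and 2692 over all. GC content was 51.7%, 48.9% and 50.3%. Of the genes that rose, 19 lay within 100 kb of another, among them the chemokine runs Ccl2 and Ccl7, Ccl5, Ccl9, Ccl3 and Ccl4, and Cxcl1 and Cxcl2. Outside the cytokines the neighbours were Kctd12 and Irg1, 64375 bases apart on chromosome 14, Gpr84 and Itga5, 33848 bases apart on chromosome 15, Bcl3 and Pvr, 80823 bases apart on chromosome 7, and the overlapping Rab20 and E230013L22Rik. The same distance joined 4 of the genes that fell. No share over all tested models is given beside these counts, so they are not read as clustering.

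The C57Bl/6EiJ pair alone differed by 2-fold or more in the called direction in 156 of the 168 genes that rose and 68 of the 75 that fell. Over all tested models it was higher by 2-fold or more in 2.47% and lower in 5.14%. The pair is part of the fit that made the calls, so the counts are no independent check. Both Balb/cJ KLA libraries stood above the C57Bl/6EiJ one in 107 of the 168 (63.7%), beside 33.3% of all tested models. The full order Balb/cJ library 1 over library 2 over C57Bl/6EiJ held in 94 (56.0%), beside 25.4%. It was as common among the 75 genes that fell, in 42 (56.0%). Both Balb/cJ KLA libraries stood above the C57Bl/6EiJ one in 52 of those 75 (69.3%). Depth falls in the same order, and its part was not tested. No label date holds libraries of both strains, so differences between strains cannot be told from differences between dates. A test of the difference between strains leaves 1 residual degree of freedom and leans on the spread shared by all genes. It called 9 of the 243 genes, which are given in the closing section with their values.

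**Figure D5:**
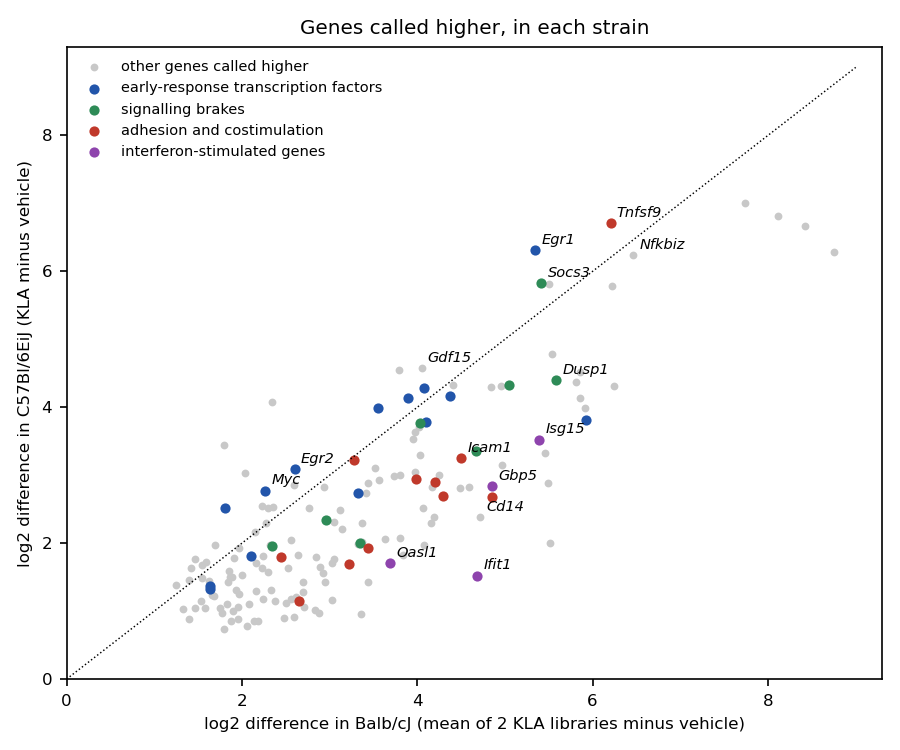
Log2 difference of RPKM + 1 between KLA and vehicle in C57Bl/6EiJ (vertical axis) and in Balb/cJ (horizontal axis, mean of the 2 KLA libraries) for the 168 genes that rose, with the dotted line marking equal change. Interferon-stimulated genes such as Ifit1 lie below the line and Egr1, Egr2 and Myc lie above it.

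The genes that rose were last looked up in the resting iBMDM libraries, which share no sample with the comparison above. These are lines immortalised with mutant BRAF and Myc and labelled Atf3KO, JunKO or JunDKO, with 2 libraries each against 2 labelled as scramble control. Only the controls carry zsGreen in their titles, and its part was not tested. The transcripts of the targeted genes do not check the labels, and the study's western blots of the proteins are not analysed here. Control libraries had 80.7 and 77.4 RPKM of Atf3 where those labelled Atf3KO had 154 and 169. Jun read 17.6 and 18.5 RPKM in controls and 26.2 and 20.5 where JunKO is labelled, and Jund read 9.19 and 8.33 RPKM and, under the JunDKO label, 6.94 and 6.07. Of the 168 genes, 136 were tested there. In the libraries labelled Atf3KO, 58 of them (42.6%) were called, 19 higher and 39 lower, beside 29.6% of all models tested in these lines, 14.6% higher and 15% lower. The second of these libraries carries another date in its label than the other 7, controls included, and the pair differed in Jund, at 22.6 and 83.0 RPKM. Without it, 49 of 134 (36.6%) were called, 10 higher and 39 lower, beside 23.4% of all models, 10.1% higher and 13.3% lower, with the lone library assumed to vary like the other groups. In those labelled JunDKO, 35 (25.7%) were called, 9 higher and 26 lower, beside 9.57% of all models, 5.4% higher and 4.18% lower, and the 35 became 18 and 21 without JunDKO library 1 or 2 and 23 without control library 2. In those labelled JunKO, 1 (0.735%) was called, lower, beside 0.365% of all models, 0.211% higher and 0.154% lower. Of the 75 genes that fell, 70 were tested. In the libraries labelled Atf3KO, 17 of the 70 (24.3%) were called, 5 higher and 12 lower, beside 29.6% of all models. Under the JunDKO label 6 (8.57%) were called, 4 higher and 2 lower, beside 9.57%, and under the JunKO label 0. The 3 comparisons share their control libraries.

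Single genes went different ways in these lines. Irg1 stood at 342 and 305 RPKM in the control libraries, 47.4 and 40.0 in Atf3KO, 4.49 and 3.13 in JunDKO and 124 and 106 in JunKO (limma adjusted p = 3.78e-05, 3.16e-07 and 0.0247), and it was the gene called in JunKO. That call was lost in 6 of the 8 fits that leave out 1 library, those without either control, JunDKO or JunKO library. Gadd45b stood at 9.46 and 10.7 RPKM in the controls and 0 and 0.439 in Atf3KO (limma adjusted p = 7.59e-05). Cd83 went the other way, from 0.487 and 1.37 RPKM in the controls to 27.2 and 25.9 in JunDKO (limma adjusted p = 0.00015). These genes were chosen after their values were seen.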

How the data were processed

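The authors aligned the reads with STAR to mm10 (C57Bl/6) or to a custom BALB/cJ version of it and counted them in exons. HOMER is also among the tools of their processing notes. The part of the separate genomes in strain differences was not tested. They deposited a table of RPKM per gene model (24453 models, columns headed FPKM) with the exonic length of each. The authors used edgeR for their own comparisons. The deposited table holds RPKM only, so limma 3.58.1 in R 4.3.3 (trended, empirical Bayes) was fitted to log2(RPKM + 1). The KLA fit used 5 libraries with treatment and strain as terms (2 residual degrees of freedom, prior 8.02). The iBMDM fit used 8 libraries (4 residual degrees of freedom, prior 5.66). Models of 200 bases or more whose 5 libraries averaged 1 RPKM or more were tested, and a call needed a Benjamini-Hochberg adjusted p under 0.05 and a fold change of at least 2.

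Whole reads were recovered from the RPKM steps. Of values of 50 reads or fewer, 100.0% in the 5 libraries lay within 0.05 of a whole number. These reads gave the depths, the read floors (3 reads) and exact 95% intervals, which cover counting error only, and a limma-voom alternative that called 177 genes higher and 160 lower. Of the reads in each of the 5 libraries, 74.1% to 86.4% lay in exons. On simulated data the KLA fit called 194 of 200 genes changed 4-fold and 9 unchanged genes.

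The labels give no replicate number that pairs vehicle with KLA libraries. They give dates, which join 1 KLA and 1 vehicle library in each strain and leave Balb/cJ KLA library 2 alone, and a fit with the date as block was an alternative. Other alternatives changed the pseudocount, filters, scaling, covariate and libraries. Sequences and exons are from RefSeq (GRCm38.p6); 98.3% of models had RefSeq exons.

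The members, lists and tests were chosen with earlier results of these data known. Genes named are the 20 largest rises and falls, up to 6 members with the largest change and every called member of each list, the 10 highest-level called genes each way and called noncoding models, with up to 3 AP-1 or cytokine genes. Others are said to be chosen after their values were seen, and a few genes that the rule names are not reported here. Python 3.11.15 was used for tables and figures.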

Additional observations from a re-analysis of the deposited data

Results flagged for a closer look

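A test of whether the response to KLA differed between the strains called 9 of the 243 changed genes. This fit leaves 1 residual degree of freedom, and on simulated data it called 138 of 200 genes changed 4-fold and also 77 unchanged genes, so the values below are given without further reading. The strains also share no label date, so a difference between strains cannot be told from a difference between dates. Each value is the Balb/cJ log2 difference minus the C57Bl/6EiJ one. In the chemokine gene Ccl7 it was 3.51 (5.52 in Balb/cJ and 2.01 in C57Bl/6EiJ, limma adjusted p = 9.25e-07), and in the interferon-stimulated gene Ifit1 3.16 (4.68 and 1.52, limma adjusted p = 2.15e-05). Among cytokine genes it was 2.61 in Il23a (5.49 and 2.89, limma adjusted p = 0.00121) and 2.47 in Il1b (8.75 and 6.29, limma adjusted p = 0.0268). In Cd14, the endotoxin receptor, it was 2.33 (4.71 and 2.38, limma adjusted p = 0.0435), and in Gbp5 2.01 (4.85 and 2.84, limma adjusted p = 0.0299). Adm, which encodes the vasodilator adrenomedullin, had 1.97 (3.68 and 1.71, limma adjusted p = 0.0217). Bcl2a1b, a near-identical copy with uncertain values, had 2.40 (3.36 and 0.96, limma adjusted p = 0.0314). Rpl35a, which fell, had -1.86 (-2.92 and -1.06, limma adjusted p = 0.0389). Over all tested models the test called 230, and it called 0 with equal library medians, after quantile normalization and by limma-voom.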

How the results depend on the processing

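The count of genes that rose (168) moved to 70 without the filter on low values and to 91 without the strain covariate, and ranged from 91 to 576 when 1 library was left out. It stayed within 1.5 times under the other alternatives, such as 177 by limma-voom. The count of genes that fell (75) depended on nearly every choice. It was 45 and 27 with pseudocounts of 0.1 and 5, 114 with 5 RPKM or more on average, 5 without a filter, 31 with equal library medians, 26 after quantile normalization, 24 with models of any length, 31 with 16 RPKM or more in either group's mean, 8 at 4-fold, 160 by limma-voom, 52 with a length correction, 69 with a GC correction, 2 without the covariate and 219 with all 13 libraries in 1 fit. Leaving out 1 library gave 13 to 663. The cause of these moves was not tested.

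With the label date as replicate block in place of strain, 139 genes rose, 138 of them shared with the fit by strain, and 26 fell. The iBMDM replicate numbers, 2 a group, do not pair the samples, and a fit with them as replicate block is among the alternatives.

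The interaction count (230) was 67 with 5 RPKM or more on average, 44 with 16 RPKM or more in either group's mean, 89 with a length correction, and 0 without a filter, with equal library medians, after quantile normalization, with models of any length and by limma-voom. Among the genes that rose, the 58 called in the libraries labelled Atf3KO became 27 with a pseudocount of 5, 37 with 5 RPKM or more on average, 26 with 16 RPKM or more and 17 at 4-fold (44 to 59 with 1 library left out). The 35 of JunDKO became 16 with a pseudocount of 5, 21 with 16 RPKM or more and 7 at 4-fold (18 to 37), and the 1 of JunKO became 0 without a filter and at 4-fold and 3 with a GC correction (0 to 1).

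List medians moved with equal library medians to -0.06 for lineage factors, 0.08 for mRNA decay, -0.07 for histone enzymes, 0.06 for small GTPase regulators, -0.37 for zinc-finger genes, 0.19 for sterol genes, -0.04 for deubiquitinases, 0.06 for the proteasome, 0.14 for lysosome genes, -0.09 for microRNA hosts and 0.31 for AP-1. After quantile normalization they were 0.08 for mRNA decay, -0.06 for histone enzymes, 0.01 for small GTPase regulators, -0.37 for zinc-finger genes, 0.19 for sterol genes, -0.06 for deubiquitinases and -0.08 for microRNA hosts. The signs of the mRNA decay, small GTPase regulators and proteasome medians thus depend on the scaling. So does that of the stress genes, at -0.01 as deposited and 0.13 with equal library medians. The proteasome median also ranged from -0.21 to 0.01 with 1 library left out. Leaving out 1 library gave 0.42 to 0.93 for the NF-kB list, 0.25 to 0.62 for signalling brakes, 0.08 to 0.25 for adhesion and costimulation, 0.16 to 0.47 for growth factors, -0.31 to -0.07 for the TLR4 list, -0.10 to 0.13 for stress genes, 0.07 to 0.64 for early transcription factors, -0.20 to -0.03 for mRNA decay, 0.04 to 0.33 for G protein-coupled receptors, -0.52 to -0.36 for zinc-finger genes, -0.01 to 0.45 for metabolic genes, 0.07 to 0.24 for interferon-stimulated genes, -0.06 to 0.09 for lysosome genes and -0.39 to -0.19 for microRNA hosts.

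No gene called in either direction changed sign under any alternative run. With 2 vehicle libraries, 1 of them of 2342451 reads, low genes and small falls are the least certain.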
